A study of Mus musculus with 8 samples.

Results

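The cell cycle and proliferation genes were a list of 40 genes that act from G1 entry to cytokinesis, and their transcripts were read in whole kidneys of Keap1-null mice and littermate controls on single-colour microarrays. Members were chosen by gene symbol. Of the 40, 37 had a probe that could be named through its RefSeq accession, among 18217 named genes on the array, and 33 were bright enough to be tested, among 19593 genes and unnamed transcripts tested. Ccnd1, Rrm2 and Prc1 had no probe named in this way and were not analysed here. The NEKO group was 4 mice of genotype Keap1-/-::Nrf2Flox/Flox::K5-Cre. The control group was 4 mice that all carried Keap1+/- and Nrf2Flox/Flox. Of these controls, control 1 carried no Cre (K1) and controls 4, 7 and 8 carried K5-Cre (K1Cre). K5-Cre is driven by the Keratin5 promoter and is active in squamous epithelium, so Nrf2 is removed there and not in most of the kidney. All 8 mice were 8 weeks old and of a mixed 129Sv/J and C57BL/6J background, with 2 females and 2 males in each group. Each slide held the arrays of 1 sex, and a difference between the sexes therefore cannot be told apart from one between the slides.

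Proliferation of a cell runs through ordered waves of transcription. D and E cyclins release E2F factors, which switch on the genes of DNA licensing, replication and nucleotide supply. A later wave through FOXM1 and B-MYB switches on the cyclin B kinase, the mitotic kinases and the spindle genes. In the adult kidney few tubule cells divide at a time, and these transcripts are used as a readout of the cycling fraction, which is known to grow after tubular injury. KEAP1 holds the transcription factor NRF2 at a low level, so loss of Keap1 leaves NRF2 and its target genes active.

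Levels below are log2 signals of 1 probe relative to the 75th percentile of the probes of the same array, so a level of 0 is the signal at that percentile, and a difference of 1 is a 2-fold difference. Levels were not compared between genes. The labels held on the deleted gene: Keap1 read 0.20 ± 0.17 (SD, n = 4) in NEKO kidneys against 1.84 ± 0.07 (SD, n = 4) in controls, a log2 difference of -1.63 (SE 0.10, limma adjusted p = 0.00458). Nqo1, a quinone reductase gene that NRF2 switches on, was higher in every NEKO kidney than in every control, with a log2 difference of 2.62 (SE 0.43, limma adjusted p = 0.0651). On the arrays 61.7% to 65.7% of probes were well above background, and no probe was saturated. Proximal tubule markers, which define most of the kidney's mass, summed to 8.77 to 9.21 over the 8 kidneys.

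No cell cycle gene passed the test between NEKO and control kidneys. At a limma adjusted p under 0.05, 0 of the 33 members were higher and 0 were lower, where 0.097% and 0.128% of all genes tested were called higher and lower. At an unadjusted p under 0.05, 1 member was higher in NEKO kidneys (Tyms) and 2 were lower (Mcm5 and Bub1), beside 7.37% and 10.6% of all genes; the 9.09% of members reaching that level in either direction stood below the 18% of all genes. In the methods' t-test without adjustment, 1 member was higher (Tyms) and 0 lower, beside 4.81% and 6.48% of all genes. The fitted difference was above 0 for 11 members and below 0 for 22, with a median of -0.04 on the log2 scale beside -0.03 over all genes. The span was from -0.51 for Mcm5 to 0.44 for Tyms. The 95% intervals show how large a difference these 8 mice leave possible: for 32 of the 33 members the interval lay within 1 log2 unit of 0, and the exception was Top2a, whose interval ran from -1.07 to 0.59. In whole-kidney RNA, fewer cells of a type and less RNA per cell cannot be told apart.

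**Figure D1:**
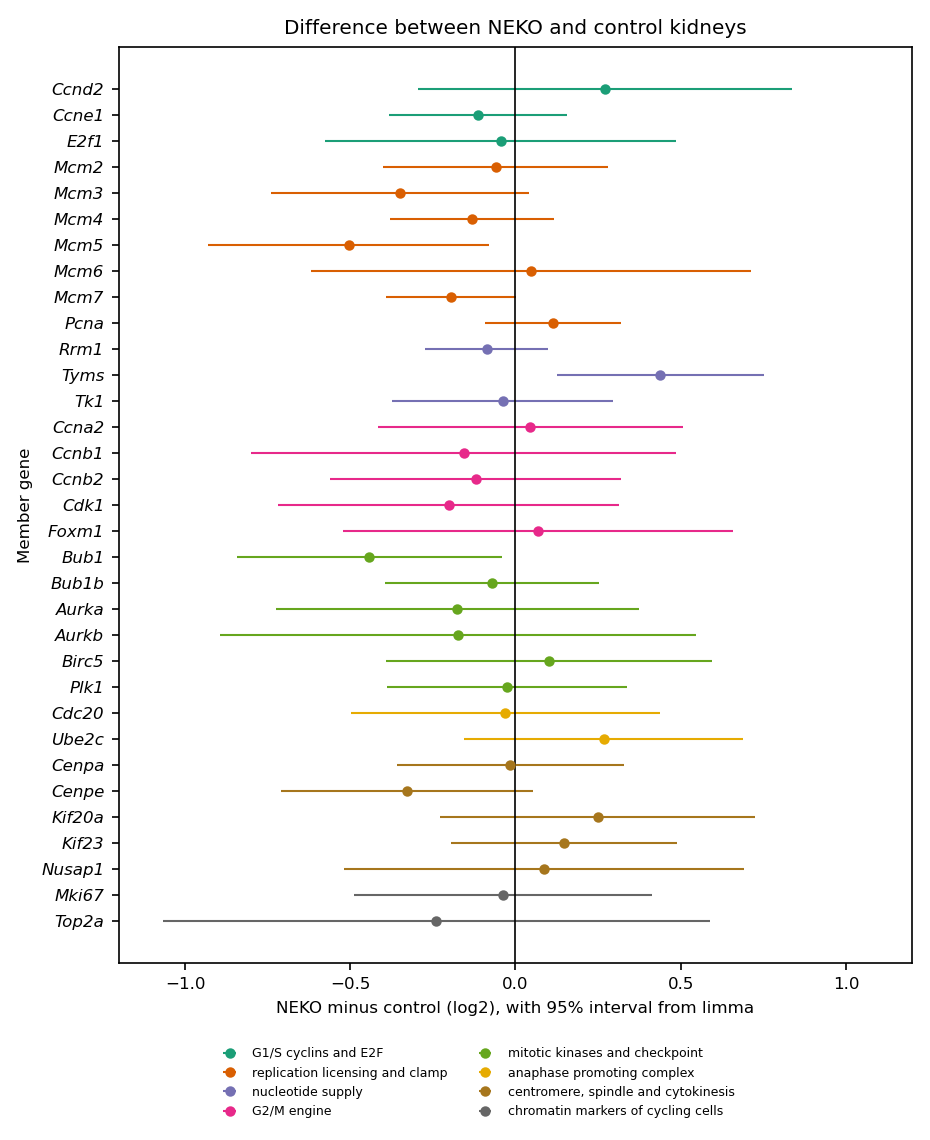
Log2 difference between NEKO and control kidneys for the 33 members tested (points), with the 95% interval from limma (bars), coloured by role. Tyms, at 0.44, lies wholly above 0, Mcm5 and Bub1, at -0.51 and -0.44, lie wholly below 0, and the other intervals cross 0.

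Among the genes of G1 entry, Ccnd2, which encodes a D-type cyclin, had the lowest p. Its level was 0.75, 0.49, 0.72 and 1.15 in controls 1, 4, 7 and 8, and 1.00, 0.44, 1.40 and 1.34 in NEKO mice 2, 3, 5 and 6. Both NEKO males stood above every control, while NEKO 3 was the lowest of all 8 mice on this probe, and the groups overlapped. On the gene's other 2 probes NEKO 3 read 0.83 and 0.74, within the control ranges of 0.45 to 0.99 and 0.24 to 0.95. The log2 difference was 0.27 (SE 0.24, limma adjusted p = 0.569), and the gene's 3 probes gave 0.27 to 0.34. Ccne1, a cyclin of S phase entry, differed by -0.11 and E2f1, the transcription factor, by -0.04. Ccne2, the other E cyclin, stood well above background in none of the 8 kidneys and has no value here.

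Of the 7 licensing and clamp genes tested, 5 differences were below 0. Mcm2 to Mcm7 encode the 6 subunits of the ring helicase that is loaded on origins before S phase. Mcm5 had the largest difference of the 33 members. It read -0.72, -0.31, -0.18 and -0.34 in controls 1, 4, 7 and 8, and -1.35, -0.56, -0.81 and -0.85 in NEKO mice 2, 3, 5 and 6. NEKO 3 lay above control 1, so the groups overlapped by that pair. The mean was -0.89 ± 0.33 (SD, n = 4) in NEKO and -0.39 ± 0.23 (SD, n = 4) in control kidneys, 1.42-fold lower, with a log2 difference of -0.51 (SE 0.18), a limma adjusted p of 0.218 and an exact permutation p of 0.0571 (two-sided). Mcm3 differed by -0.35 (SE 0.17), Mcm7 by -0.19 (SE 0.08), Mcm4 by -0.13 (SE 0.11) and Mcm2 by -0.06 (SE 0.14), none past the test. Mcm6 differed by 0.05 (SE 0.28), made up of 0.71 in females and -0.61 in males. Pcna, the sliding clamp of the replication fork, held within 0.33 log2 units over all 8 mice and differed by 0.11 (SE 0.09). Cdc6, which loads the helicase, was well above background on 1 array only, that of control 8, and was not tested.

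Among the nucleotide supply genes, Tyms was the 1 member whose groups did not overlap, and this held on its brighter probe only. Tyms encodes thymidylate synthase, which makes dTMP. It read 2.05, 1.63, 2.09 and 2.05 in controls 1, 4, 7 and 8, and 2.38, 2.61, 2.11 and 2.48 in NEKO mice 2, 3, 5 and 6. On this probe every NEKO kidney stood above every control, by a margin of 0.02 between NEKO 5 and control 7. Of all genes tested, 3.88% showed this separation upwards. The mean was 2.40 ± 0.21 (SD, n = 4) against 1.96 ± 0.22 (SD, n = 4), 1.36-fold, with a log2 difference of 0.44 (SE 0.13, 95% interval 0.12 to 0.75). The limma adjusted p was 0.182, and the exact permutation p was 0.0286, the smallest that 4 mice against 4 can give. The second Tyms probe, also detected in all 8 kidneys, differed by 0.35, and there the groups overlapped, with NEKO 5 at 1.76 below control 1 at 1.77. Rrm1, the large subunit of ribonucleotide reductase, differed by -0.09 (SE 0.08), and Tk1, thymidine kinase, by -0.04 (SE 0.14).

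In the G2/M group, Cdk1, the kinase that drives mitotic entry, had the lowest p. It read -2.84, -2.17, -1.78 and -2.43 in controls 1, 4, 7 and 8, and -3.07, -2.31, -2.57 and -2.08 in NEKO mice 2, 3, 5 and 6. Control and NEKO values interleaved over a range of 1.29 log2 units, and the log2 difference was -0.20 (SE 0.22, limma adjusted p = 0.640). Its partner cyclins Ccnb1, Ccnb2 and Ccna2 differed by -0.16, -0.12 and 0.05, and Foxm1, the factor of the late wave, by 0.07. Cdc25c, a phosphatase that activates CDK1, stood well above background in none of the 8 kidneys.

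Of the mitotic kinases and checkpoint genes, Bub1, a kinase of the spindle checkpoint, had the largest difference. It read -0.83, -0.24, -0.93 and -1.02 in controls 1, 4, 7 and 8, and -1.26, -1.18, -1.005 and -1.33 in NEKO mice 2, 3, 5 and 6. The NEKO kidneys stood below the controls apart from NEKO 5, which was 0.01 above control 8, and control 4 stood apart at the top. The log2 difference was -0.44 (SE 0.17, limma adjusted p = 0.244), and a second, dimmer probe differed by -0.25. On the dimmer probe the groups interleaved, at -5.30 to -4.53 in controls and -5.93 to -4.60 in NEKO kidneys. From NEKO 2 to NEKO 3 the dimmer probe stepped up by 1.16 and the brighter one by 0.07. Bub1b, Aurka, Aurkb and Plk1, the other kinases of this group, differed by -0.07, -0.18, -0.17 and -0.03, and Birc5, which encodes survivin of the chromosomal passenger complex, by 0.10. Aurkb was well above background on 6 of the 8 arrays.

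Ube2c and Cdc20 serve the anaphase promoting complex, as its ubiquitin-conjugating enzyme and its activator. Ube2c read -2.27, -1.74, -1.65 and -2.03 in controls 1, 4, 7 and 8, and -1.50, -1.59, -1.51 and -2.03 in NEKO mice 2, 3, 5 and 6. NEKO mice 2, 3 and 5 stood above every control and NEKO 6 did not. The log2 difference was 0.27 (SE 0.18, limma adjusted p = 0.455), and that of Cdc20 was -0.03 (SE 0.20). Among the spindle and cytokinesis genes, Cenpe, a kinesin of the kinetochore, had the lowest p, with a log2 difference of -0.33 (SE 0.16, limma adjusted p = 0.334). It read -0.41, 0.57, 0.62 and -0.61 in controls 1, 4, 7 and 8, and -0.74, -0.30, -0.04 and -0.06 in NEKO mice 2, 3, 5 and 6. The control males alone stood above 0, and the other 6 mice lay below it. The cytokinesis kinesins Kif20a and Kif23 differed by 0.25 and 0.15, Nusap1, which bundles spindle microtubules, by 0.09, and Cenpa, the histone of centromeres, by -0.02. Kif11, the kinesin that separates spindle poles, was well above background on 2 NEKO arrays with its brighter probe and on 1 control array with the other, and was not tested.

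Mki67 and Top2a are the usual chromatin markers of cycling cells. Mki67 read -0.44, 0.11, 0.43 and -0.14 in controls 1, 4, 7 and 8, and -0.73, 0.12, 0.15 and 0.27 in NEKO mice 2, 3, 5 and 6. The NEKO values lay within the control range apart from NEKO 2, below it. The means were -0.05 ± 0.46 (SD, n = 4) and -0.01 ± 0.37 (SD, n = 4), and the log2 difference was -0.04 (SE 0.19, 95% interval -0.49 to 0.41, limma adjusted p = 0.931). Top2a, the topoisomerase of replicating and condensing chromatin, read -4.10, -3.55, -3.45 and -3.03 in controls 1, 4, 7 and 8, and -4.80, -3.52, -3.50 and -3.27 in NEKO mice 2, 3, 5 and 6. Here too NEKO 2 stood below all others, and the log2 difference was -0.24 (SE 0.35, limma adjusted p = 0.736). Without NEKO 2 it was 0.09, and without control 8 it was 0.05.

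Individual mice stood apart over the list. NEKO 2 was the lowest of the 8 mice for 21 of the 33 members, where it was the lowest for 10.3% of all genes, and control 1 was the lowest for another 6. Control 7 was the highest for 15 members, against 9.59% of all genes. The median deviation of the members from their mean over the 8 mice was -0.48 in NEKO 2 and -0.29 in control 1, both females, and between -0.08 and 0.24 in the other mice. Mice of the same genotype group and sex could thus be set side by side. Between the NEKO females, NEKO 3 stood above NEKO 2 for 31 of 33 members (93.9%, against 50.8% of all genes), by a median of 0.57. Between the control females, control 8 stood above control 1 for 29 of 33 (87.9%, against 43.2%), by a median of 0.26. These control females differed in Cre as well, since control 1 was the K1 mouse. Between the males the steps were smaller, with control 7 above control 4 for 75.8% of members (53.2% of all genes) by a median of 0.14, and NEKO 6 above NEKO 5 for 60.6% (46.1%) by a median of 0.12. With 1 mouse on each side these differences have no replicate check, and they were noticed in the data.

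**Figure D2:**
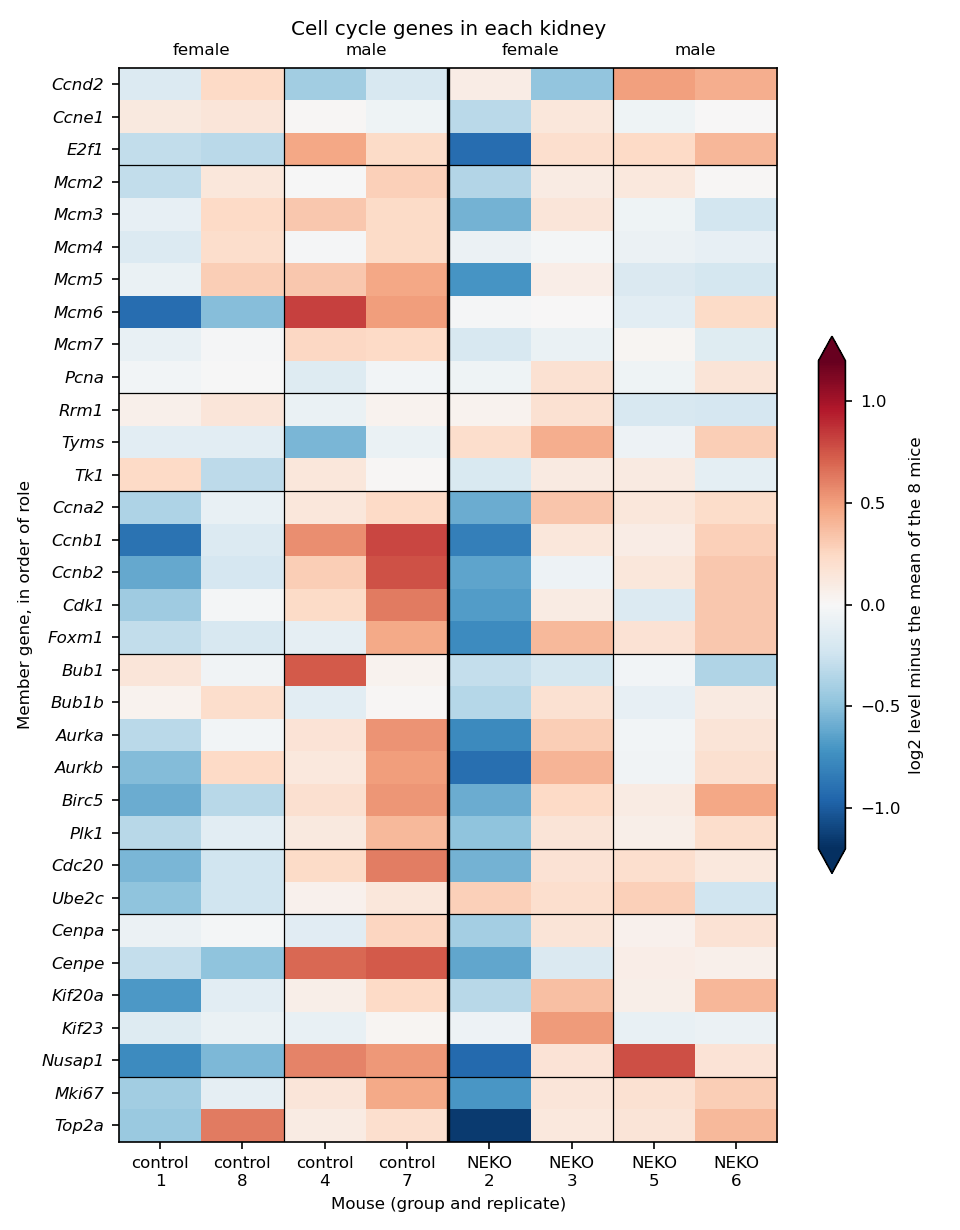
Log2 level of each of the 33 members in each kidney, as the deviation from its mean over the 8 mice (colour; red above, blue below), with members in order of role and mice in order of group and sex. The columns of NEKO 2 and control 1 are mostly blue, with median deviations of -0.48 and -0.29, and that of control 7 mostly red, at 0.24.

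The low values of NEKO 2 were deepest in the G2/M, mitotic kinase and chromatin marker genes. In NEKO 2 the median deviation was -0.67 for the G2/M group, -0.54 for the mitotic kinases and checkpoint genes and -0.93 for Mki67 and Top2a, against -0.19 for the licensing genes and 0.05 for the nucleotide supply genes. It was -0.41 for the spindle and cytokinesis genes, -0.32 for the genes of G1 entry and -0.14 for Ube2c and Cdc20. Between the NEKO females the largest step was Aurkb, at 1.31 from NEKO 2 to NEKO 3, although Aurkb is dim, and Ccnd2 and Ube2c were the 2 members that did not step up, at -0.56 and -0.09. The other 2 probes of Ccnd2 stepped up, by 0.05 and 0.10. T cell markers summed over 4 of 5 listed genes were at their lowest in NEKO 2, at -2.22 against -1.85 to -0.66 in the other mice. Of these genes Cd8a was lowest in NEKO 2, at -4.96 against -3.49 to -2.12. Cd3e was lowest there too, at -4.62 against -4.47 to -3.30, but had no value in control 4, whose sum left it out. Cd3g was lowest in NEKO 3 and Lck in control 4. In control 1 the erythroid markers summed over 3 of 4 were at their lowest, at 6.18 against 7.02 to 9.48, and so were the neutrophil markers summed over 2 of 4, at -2.58 against -1.71 to 2.72. The part of these cells in the spread was not tested.

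**Figure D3:**
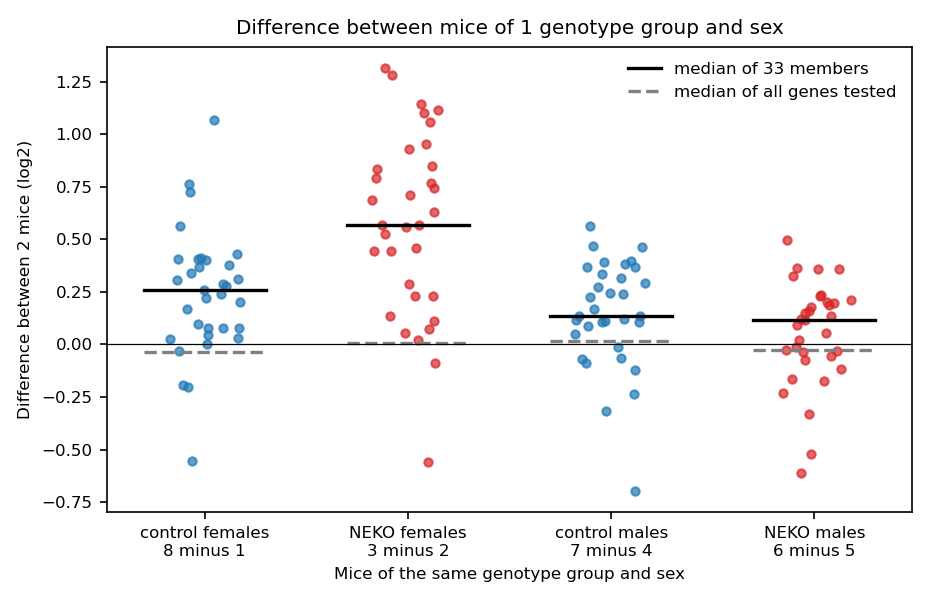
Difference in log2 level between 2 mice of the same genotype group and sex, with 1 point for each of the 33 members (red NEKO, blue control). Solid bars mark the median of the members, which was 0.57 for the NEKO females, 0.26 for the control females, 0.14 for the control males and 0.12 for the NEKO males, and dashed bars the median of all genes, which lay within 0.04 of 0 in each pair.

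Promoter sequences are shown for Ccnb2, Cdk1, Cdc20 and Mki67, which stood 0.57 to 0.85 higher in NEKO 3 than in NEKO 2, and for Mcm6 and Tyms, where that step was 0.02 and 0.23. The late cell cycle genes are known for CCAAT boxes, bound by NF-Y, placed near a CHR element, bound by the DREAM and MuvB complexes, and S phase genes for E2F sites. Each stretch is the 200 bases before the RefSeq start of the gene, 5′ to 3′ in the direction of transcription, on GRCm38.p6. All 6 genes lie on the minus strand, Ccnb2 at chr9:70421555-70421754, Cdk1 at chr10:69352913-69353112, Cdc20 at chr4:118437344-118437543, Mki67 at chr7:135716380-135716579, Mcm6 at chr1:128359706-128359905 and Tyms at chr5:30073626-30073825. Capitals mark CCAAT boxes, the CHR element with the letters TTTGAA, and E2F sites with the letters TTTCCCGC, TTTCGCGC, TTTGCCGC or TTTGGCGC, each sought on both strands.
Ccnb2: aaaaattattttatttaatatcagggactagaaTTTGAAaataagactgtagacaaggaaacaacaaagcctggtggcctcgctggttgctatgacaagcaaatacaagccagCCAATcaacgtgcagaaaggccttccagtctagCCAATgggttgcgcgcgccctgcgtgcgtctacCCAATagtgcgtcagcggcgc
Cdk1: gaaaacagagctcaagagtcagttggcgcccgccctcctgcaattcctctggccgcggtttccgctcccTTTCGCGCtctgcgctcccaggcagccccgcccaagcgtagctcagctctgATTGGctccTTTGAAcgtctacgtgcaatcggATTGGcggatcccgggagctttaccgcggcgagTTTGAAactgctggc
Cdc20: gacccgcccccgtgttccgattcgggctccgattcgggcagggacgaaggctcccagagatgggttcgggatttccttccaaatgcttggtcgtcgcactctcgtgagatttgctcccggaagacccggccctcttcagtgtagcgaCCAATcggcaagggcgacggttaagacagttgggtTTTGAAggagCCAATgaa
Mki67: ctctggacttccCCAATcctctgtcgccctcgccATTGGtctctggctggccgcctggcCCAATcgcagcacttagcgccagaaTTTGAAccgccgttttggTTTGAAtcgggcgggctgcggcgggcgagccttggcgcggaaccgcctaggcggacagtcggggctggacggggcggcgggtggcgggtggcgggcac
Mcm6: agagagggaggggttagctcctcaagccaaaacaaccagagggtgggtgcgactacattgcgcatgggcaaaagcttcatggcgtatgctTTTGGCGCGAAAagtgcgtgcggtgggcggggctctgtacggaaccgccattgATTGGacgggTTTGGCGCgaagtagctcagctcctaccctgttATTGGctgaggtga
Tyms: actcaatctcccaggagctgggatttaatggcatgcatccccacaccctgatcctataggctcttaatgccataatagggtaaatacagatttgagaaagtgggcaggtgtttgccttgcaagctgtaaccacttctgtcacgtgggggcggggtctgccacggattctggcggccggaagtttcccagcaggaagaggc
Cdk1 held 2 CCAAT boxes, 2 CHR matches and 1 E2F match, and Cdc20 2 CCAAT boxes and 1 CHR match. Ccnb2 held 3 CCAAT boxes and 1 CHR match, and Mki67 3 CCAAT boxes and 2 CHR matches. The Ccnb2 CHR match shown lies at -167 from the start, apart from its CCAAT boxes at -87, -54 and -21. Another Ccnb2 CHR match lies at 4 bases after the start, outside the stretch shown. Mcm6 held 3 E2F matches, 2 of which overlap each other on opposite strands, and 2 CCAAT boxes. Tyms held none of these letters in this stretch. A promoter was given for 31 of the 40 members. Within the 300-base windows around their starts (250 bases before and 50 after), 24 of the 31 (77.4%) held CCAAT, against 41.1% of the 27025 genes with a window. CHR letters were in 14 (45.2%, against 20.2%) and E2F letters in 6 (19.4%, against 2.6%). TGACNNNGC, the core of the antioxidant response element that NRF2 binds, was in 6 (19.4%, against 14.0%). The genes shown do not stand for the whole list. Mcm3 and Mcm5, whose windows held E2F and no CHR matches, read 0.71 and 0.79 higher in NEKO 3 than in NEKO 2. Ube2c, whose window held CCAAT boxes and a CHR match, differed by -0.09. A link between the letters and the step was not tested. These matches describe letters in a window and say nothing of binding.

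The effect of the genotype was then compared between the sexes. With a term for the interaction of genotype and sex, 0 of 33 members passed at a limma adjusted p under 0.05, beside 0.0153% of all genes. At an unadjusted p under 0.05, 4 members were reached (Mcm6, Ccnd2, Cenpe and Ube2c), beside 10.5% of all genes. Mcm6 had the lowest p. It read 1.496 and 1.90 in the control females 1 and 8 and 2.39 and 2.41 in the NEKO females 2 and 3. In the males it read 3.23 and 2.91 in controls 4 and 7 and 2.28 and 2.64 in NEKO mice 5 and 6. Both NEKO females thus stood above both control females, and both NEKO males below both control males. Control 1, the lowest mouse for Mcm6, carried no Cre, while control 8 and both control males carried K5-Cre. An effect that differs between the sexes also cannot be told apart from one that differs between the slides. The NEKO difference was 0.71 in females and -0.61 in males, and the difference between them was -1.32 (SE 0.28), with a limma interaction p of 0.0032 unadjusted and 0.159 adjusted. Ccnd2 went the other way, with -0.23 in females and 0.77 in males (difference 1.00, SE 0.32, limma adjusted p = 0.325). Its other 2 probes gave -0.02 and -0.02 in females and 0.68 and 0.69 in males. Ube2c gave 0.60 in females and -0.07 in males, and Cenpe -0.01 and -0.64.

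Most members read higher in males than in females. The male level exceeded the female level for 27 of 33 members, by a median of 0.36 on the log2 scale, beside 0.01 over all genes. Without control 1 and NEKO 2 this was 21 of 33 members and a median of 0.08. Those 2 females were picked for their low values on these same members. The smaller difference follows from that choice and does not show what the difference rests on. No member passed the test at a limma adjusted p under 0.05, where 0.786% of all genes did. At an unadjusted p under 0.05, 10 were higher in males and 1, Rrm1, was lower, beside 10.4% and 10.8% of all genes. For 4 members (E2f1, Ccnb2, Cenpe and Nusap1) every male stood above every female, beside 6.75% of all genes, and for Rrm1 every male stood below every female, beside 5.27%. Nusap1 had the largest difference. It read -3.09, -2.87, -3.27 and -2.17 in the females (controls 1 and 8, NEKO 2 and 3) and -1.75, -1.81, -1.56 and -2.17 in the males (controls 4 and 7, NEKO 5 and 6). NEKO 3 and NEKO 6 met at the edge of the 2 ranges, and the difference was 1.03 (SE 0.26, limma adjusted p = 0.0946). Cenpe differed by 0.78 (SE 0.16, limma adjusted p = 0.0745) and Ccnb2 by 0.76 (SE 0.19, limma adjusted p = 0.0928). Summed erythroid markers, from 3 of 4 listed genes, also stood higher in males, at 7.87 to 9.48 against 6.18 to 7.72 in females, and summed proximal tubule markers, from 5 of 5, at 9.09 to 9.21 against 8.77 to 8.96. Their part in the difference was not tested.

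**Figure D4:**
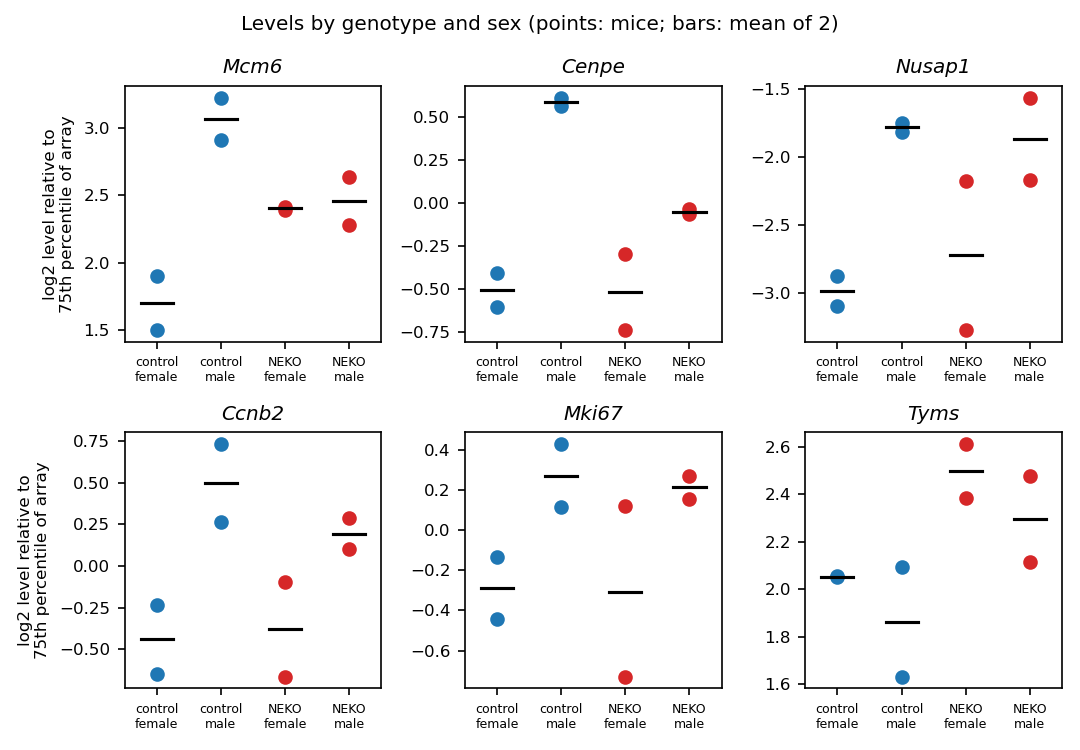
Log2 levels of 6 members by genotype group and sex, with 1 point per mouse (blue control, red NEKO) and a bar at the mean of 2 mice; each panel has its own scale. Mcm6 differs by 0.71 between NEKO and control females and by -0.61 between the males, Cenpe, Nusap1, Ccnb2 and Mki67 read lower in females, and Tyms, shown on its brighter probe, separates by genotype, which its second probe does not.

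Of 85 other cell cycle genes that are not members, 77 were tested and none passed in the fit of genotype and sex. At a limma adjusted p under 0.05, 0 were higher and 0 lower, beside the 0.097% and 0.128% of all genes given above, and at an unadjusted p under 0.05, 2 were higher and 13 lower, beside 7.37% and 10.6% of all genes. In the 24 S phase genes tested, 20 differences were below 0, with a median of -0.22 beside -0.03 over all genes. For 6 of the 24 (25%) every NEKO kidney stood below every control, where 5.39% of all genes did so. These were Prim1, Pola1, Pole, Orc6, Cdt1 and Rfc4. Prim1, the catalytic subunit of primase, had the lowest p. It read 0.81, 1.09, 1.11 and 1.07 in controls 1, 4, 7 and 8, and 0.60, 0.60, 0.36 and 0.16 in NEKO mice 2, 3, 5 and 6. The difference was -0.59 (SE 0.13, limma adjusted p = 0.109). With the effect averaged over females and males and the interaction fitted, Prim1 passed (limma adjusted p = 0.0353), where 1.25% of all genes were called higher and 1.37% lower. Pola1, the polymerase that works with primase, read -0.62, -0.62, -0.64 and -0.57 in controls 1, 4, 7 and 8, and -0.89, -0.89, -0.96 and -0.81 in NEKO mice 2, 3, 5 and 6. Both groups were tight, with SDs of 0.03 in controls and 0.06 in NEKO mice, and the difference was -0.27 (SE 0.07, limma adjusted p = 0.130). Pole, the leading strand polymerase, differed by -0.46 and the licensing genes Orc6 and Cdt1 by -0.32 and -0.36. Rfc4, of the clamp loader, differed by -0.21.

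**Figure D5:**
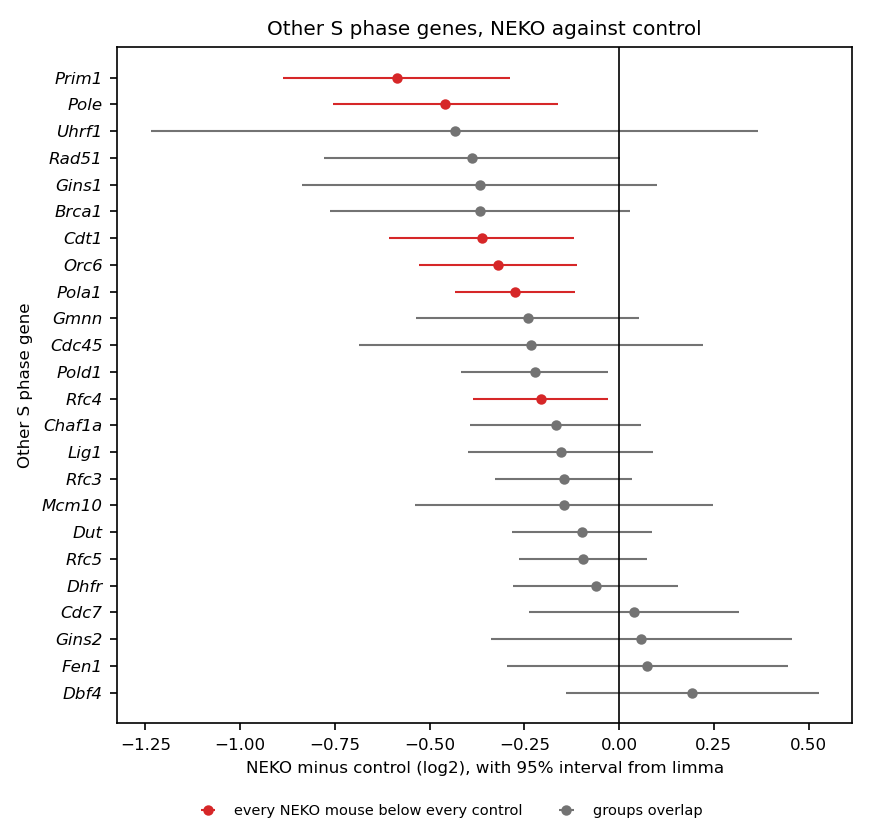
Log2 difference between NEKO and control kidneys for the 24 other S phase genes tested (points), with the 95% interval from limma (bars). In red are the 6 genes for which every NEKO kidney stood below every control, from -0.59 for Prim1 to -0.21 for Rfc4; none passed the test over all genes.

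The 31 mitosis genes tested that are not members had a median difference of -0.09, and none separated the groups. The lowest p were those of Smc2, a condensin subunit (-0.45, SE 0.14, limma adjusted p = 0.187), and Kif22, a chromosome kinesin (-0.35, SE 0.14, limma adjusted p = 0.275). Of 15 cell cycle brakes tested, Btg2, an antiproliferative p53 target, had the lowest p. It read 1.49, 1.06, 0.71 and 1.42 in controls 1, 4, 7 and 8, and 0.85, 0.62, 0.58 and 0.28 in NEKO mice 2, 3, 5 and 6. NEKO 2 lay above control 7, and within each sex every NEKO kidney stood below both controls. The difference was -0.59 (SE 0.13, limma adjusted p = 0.107). Cdkn1a, which encodes the CDK inhibitor p21, differed by -0.74 (SE 0.29, limma adjusted p = 0.243). Cdkn2b, which encodes the CDK inhibitor p15, was the 1 brake higher in every NEKO kidney (0.47), and Ccng1, a cyclin switched on by p53, the 1 brake lower in every NEKO kidney (-0.20). That was 6.67% of the brakes in each direction, near the 3.88% and 5.39% of all genes. The 7 tested genes of the G1 kinases and E2F list all differed by more than 0, with a median of 0.20. Myc, a driver of G1 entry, read -1.69, -2.40, -1.82 and -1.63 in controls 1, 4, 7 and 8, and -1.52, -1.02, -0.93 and -0.98 in NEKO mice 2, 3, 5 and 6. Every NEKO kidney stood above every control, as for 3.88% of all genes, and the difference was 0.77 (SE 0.21, limma adjusted p = 0.158). E2f3 differed by 0.20 (SE 0.11, limma adjusted p = 0.359).

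The cell makeup of the kidneys was read from marker lists. Summed intercalated cell markers, from 4 of 4 listed genes, stood at 2.59 to 4.52 in NEKO and 5.14 to 5.57 in control kidneys, without overlap. The summed levels of the other 14 lists overlapped between the groups, among them proximal tubule at 8.94 to 9.17 against 8.77 to 9.21. Such a sum follows its brightest gene, and single markers of several lists differed at an unadjusted p under 0.05, with no limma adjusted p under 0.05. At that unadjusted level 13 of the 61 markers tested were higher and 9 lower, beside 7.37% and 10.6% of all genes. Of the proximal tubule markers, Slc5a2 was lower, by -0.43, with every NEKO kidney below every control, and Slc22a6 was higher, by 0.34. Slc34a1, Lrp2 and Aqp1 did not reach that level. Kcnj1 (-0.55) of the thick ascending limb, Lyz2 (1.38) of macrophages and Alas2 (1.52) of erythroid cells alone reached it in their lists. All 3 distal convoluted tubule markers were lower in NEKO kidneys, by -1.12 to -0.57. Of the 5 urothelial markers 3 were higher, among them Krt5, by 1.85, with every NEKO kidney above every control. Upk1a, of the same list, went the other way, at -0.71, with every NEKO kidney below every control. Of all genes tested, 3.88% separated the groups upwards and 5.39% downwards. The 6 injured tubule markers summed to 6.94 to 7.77 against 6.67 to 7.80, a sum made mostly of Spp1. Of these 6, Krt18 (1.03, with every NEKO kidney above every control), Sox9 (1.65) and Lcn2 (0.73) were higher. Havcr1 (-0.42), Vcam1 (0.11) and Spp1 (-0.003) did not reach that unadjusted p, so the list was split. Both tested neutrophil markers were higher, S100a8 by 1.81 (0.60 in females, 3.01 in males) and S100a9 by 1.64 (0.46 and 2.81). S100a8 was well above background on 4 of the 8 arrays. So were 2 of 5 fibroblast markers higher, Pdgfrb by 0.48 (0.09 in females, 0.86 in males) and Pdgfra by 0.57 (0.23 and 0.91). Col1a1, Col3a1 and Dcn differed by -0.58, -0.52 and -0.38 in females and by 2.04, 1.15 and 1.40 in males. Of the T cell markers, Cd8a was lower, by -1.28, with every NEKO kidney below every control. Cd8a was well above background on 7 of the 8 arrays. Cd3e, Cd3g and Lck, of the same list, went the other way, by 0.10, 0.28 and 0.37, and their groups overlapped. The part of cell makeup in the differences of Tyms, Myc and the S phase genes was not tested.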

How the data were processed

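Total kidney RNA of 8 mice was labelled with Cy3 and hybridised to Agilent mouse arrays, 1 array per mouse, and the authors read the scans with Feature Extraction 10.7.3.1. The deposited scanner files hold signal intensity per spot, background-subtracted within the array, and a flag for spots well above background. The deposited value table holds log2 values centred per probe; how they were made is not given in the sources used here, and 100% of its differences between arrays lay within 0.01 of those computed here.

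Here log2 intensity was taken less each array's 75th percentile over non-control probes, with outlier spots left out. A probe was kept where at least 4 of the 8 arrays flagged it as well above background and at least 6 had a value. Of 41174 probes, 26690 were named by accession through RefSeq (GRCm38.p6), and each gene was represented by the brightest of its kept probes. limma 3.58.1 in R 4.3.3 fitted genotype and sex, with Benjamini-Hochberg adjustment over all 19593 features, and a second model added their interaction. Fits were tested on simulated data. Single values also had an exact two-sided permutation test of 4 mice against 4. The number of arrays limits the precision. Values per mouse are given for members that were called or separated the groups, for the member with the lowest p in each role and, in each list of other cell cycle genes, the 2 with the lowest p are named. Mki67, Mcm6, Nusap1, the promoters shown and the other genes named because the groups did not overlap were chosen after their values were seen. Members and lists were chosen with earlier results of these data known. The alternatives tried were background correction, scaling, dim-probe filter, probe choice, covariates, variance model, the methods' t-test, the deposited table and leaving out each mouse. Leaving out control 1 and NEKO 2 together was chosen after seeing the data.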

Additional observations from a re-analysis of the deposited data

Results flagged for a closer look

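In groups of 4 mice, 1 mouse stood far from the other 3 in 7 of the 66 combinations of member and group. For a single combination, chance alone flags about 1 in 20. The combinations are not independent, because all members were read in the same mice. NEKO 2 alone was the lowest mouse for 21 of the 33 members. The 7 flags therefore cannot be weighed against that rate. The values are the gap to the nearest mouse as a share of the group's range. NEKO 2 stood low for E2f1 (0.85; -3.62 against -2.50 to -2.31 in the other NEKO mice), for Cdc20 (0.904; -0.33 against 0.37 to 0.45), for Mki67 (0.846; -0.73 against 0.12 to 0.27) and for Top2a (0.834; -4.80 against -3.52 to -3.27). NEKO 6 stood low for Ube2c (0.836; -2.03 against -1.59 to -1.50), and NEKO 3 stood high for Kif23 (0.947; -2.25 against -2.85 to -2.82). Control 4 stood low for Tyms (0.906; 1.63 against 2.05 to 2.09). For Mcm6 every NEKO female stood above the control females and every NEKO male below the control males. The difference of the 2 effects was -1.32, and it did not pass the interaction test (limma adjusted p = 0.159).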

How the results depend on the processing

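Over 24 settings the count of members called stayed at 0 in both directions, except with the methods' t-test without adjustment, which called 1 higher (Tyms) and 0 lower beside 4.81% and 6.48% of all genes. Of the other cell cycle genes that test called 1 higher (Myc) and 7 lower (Prim1, Pola1, Pole, Pold1, Orc6, Btg2 and Ccng1), and the effect averaged over the sexes in the interaction model called 1 lower (Prim1, limma adjusted p = 0.0353) beside 1.37% of all genes. Tyms ranged from 0.35 to 0.53 with adjusted p from 0.130 to 0.401, Mcm5 from -0.68 to -0.36 and Bub1 from -0.55 to -0.27. The median difference of the members ranged from -0.17 without NEKO 3 to 0.07 without NEKO 2, and was -0.01 without control 1 and NEKO 2. No member passed the interaction test in any of 18 settings, and the Mcm6 value there ranged from -1.52 to -1.12. No paired analysis was possible because the replicate numbers run over both groups and no number is shared.

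The sign of the difference turned for 18 members and kept for 15. With 1 mouse left out the ranges were Aurka -0.41 to 0.0121, Aurkb -0.45 to 0.0765, Birc5 -0.10 to 0.23, Bub1b -0.15 to 0.0594, Ccna2 -0.15 to 0.22, Ccnb2 -0.27 to 0.00919, Cdc20 -0.22 to 0.0902, Cenpa -0.11 to 0.11, E2f1 -0.27 to 0.18, Foxm1 -0.16 to 0.30, Kif23 -0.00623 to 0.22, Mcm2 -0.15 to 0.0283, Mcm6 -0.17 to 0.25, Mki67 -0.21 to 0.13, Nusap1 -0.17 to 0.27, Plk1 -0.17 to 0.0823, Tk1 -0.16 to 0.0655, Top2a -0.42 to 0.0878. Array weights gave Birc5 -0.0239, Ccna2 -0.0443 and Foxm1 -0.11, normexp gave Bub1b 0.00185 and Cenpa 0.0583, quantile normalization gave Cenpa 0.0278 and the mean of the probes gave E2f1 0.00888; the cause was not tested.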
